A study of Mus musculus with 12 samples.

Results

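The crypt stem cell and Wnt target genes are 10 genes, Lgr5, Axin2, Ascl2, Smoc2, Rnf43, Znrf3, Sox9, Lrig1, Nkd1 and Ephb2, taken by name from the 17734 genes of the expression table. All 10 were present and all 10 passed the filter on low values, as did 15315 genes in total. They were followed in rectal RNA of 12 male C57BL/6 mice of 8 to 10 weeks, in 4 groups of 3. Normal mice received water, and colitis mice received 2.5% dextran sulfate sodium (DSS), which damages the epithelium of the bowel, with their drinking water over 7 days. Berberine (BBR), a plant alkaloid, was given by gavage at 100 mg/kg to 1 group of normal mice and 1 group of colitis mice. Its course was 6 days in the sample labels and 7 days elsewhere. The labels call the tissue colorectum. Each library is bulk tissue, in which markers of epithelium, muscle, stroma and leukocytes were all present, and fewer cells of a type cannot be told apart from less RNA per cell.

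The lining of the large bowel is renewed from stem cells at the base of the crypts. These cells depend on Wnt ligands, which bind Frizzled receptors and LRP co-receptors, stabilize beta-catenin and let it act with TCF/LEF factors on target genes. Lgr5, a receptor for R-spondins, marks the stem cells, and Ascl2 is a transcription factor of the same cells. Axin2, Nkd1, Rnf43 and Znrf3 are Wnt targets that dampen the pathway: Axin2 in the beta-catenin destruction complex, Nkd1 through Dishevelled, and Rnf43 and Znrf3 as ubiquitin ligases that remove Frizzled receptors. Smoc2 is a matricellular protein, Sox9 a transcription factor of the lower crypt, Lrig1 a restraint on ErbB signaling and Ephb2 a receptor that positions cells along the crypt.

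The 12 libraries did not all stand together. In each group the mouse numbered 4 had a lower column total, 482194 to 504337 FPKM against 696286 to 765876 in the 8 mice numbered 1 to 3, and fewer genes at 0, 872 to 1086 against 1332 to 1926. The labels name no batch. The members' results are therefore given for all 12 mice and also without the 4 mice numbered 4, and those of the other gene lists for all 12 mice. Values were read as FPKM, a unit in which transcript length and depth are already divided out. Tests used limma on log2(FPKM + 0.1), a scale that understates changes of low genes. The Benjamini-Hochberg adjustment was made over the 15315 genes tested, and calls by the limit used in the study, an unadjusted P no higher than 0.05, stand beside the adjusted ones. The labels do not say whether mice shared a cage or litter. With 3 mice on each side, the smallest p that an exact permutation test (two-sided) can reach is 0.1.

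Promoter sequences of RefSeq (GRCm38.p6, 250 bases before to 50 after a transcription start) were matched for 6 of the 10 genes, as 7 windows, 2 of them for Rnf43. Lgr5, Smoc2, Znrf3 and Sox9 were not matched. Axin2 and Ascl2 are shown because they were among the genes with the largest differences in colitis, and Ephb2 because it was the only member with a higher mean in colitis mice. Capitals mark CG dinucleotides, of which the Axin2 window holds 31, the Ascl2 window 23 and the Ephb2 window 24, against a median of 7 over all 32851 windows. The other windows held 35 (Lrig1), 6 (Nkd1), and 10 and 3 (Rnf43). The windows lie at chr11:108920099-108920398 on the + strand (Axin2), chr7:142969215-142969514 on the - strand (Ascl2) and chr4:136835963-136836262 on the - strand (Ephb2).
Axin2: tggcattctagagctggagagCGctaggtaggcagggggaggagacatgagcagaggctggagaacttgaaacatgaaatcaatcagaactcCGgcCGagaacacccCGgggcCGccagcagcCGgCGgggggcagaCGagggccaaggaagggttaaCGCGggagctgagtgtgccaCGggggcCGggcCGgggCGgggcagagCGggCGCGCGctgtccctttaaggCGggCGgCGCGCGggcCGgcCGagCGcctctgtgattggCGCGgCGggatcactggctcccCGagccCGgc
Ascl2: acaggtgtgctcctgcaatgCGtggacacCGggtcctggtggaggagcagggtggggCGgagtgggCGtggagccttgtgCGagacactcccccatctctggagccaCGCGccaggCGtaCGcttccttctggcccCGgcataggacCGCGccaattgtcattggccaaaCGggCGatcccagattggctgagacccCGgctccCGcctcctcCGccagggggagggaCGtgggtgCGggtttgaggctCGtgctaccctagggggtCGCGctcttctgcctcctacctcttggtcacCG
Ephb2: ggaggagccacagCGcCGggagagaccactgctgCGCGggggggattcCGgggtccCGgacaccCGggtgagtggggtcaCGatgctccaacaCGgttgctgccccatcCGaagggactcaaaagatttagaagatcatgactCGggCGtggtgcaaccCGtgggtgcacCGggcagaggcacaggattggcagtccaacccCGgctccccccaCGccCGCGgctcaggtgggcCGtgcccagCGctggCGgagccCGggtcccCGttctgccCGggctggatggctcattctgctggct
The letters CTTTG, the core of the TCF/LEF motif, were searched on both strands. They were found in 0 of the 7 windows and in 53.9% of all windows of this length, and the longer forms CTTTGAT and CTTTGAA, which contain the core, in 3.73% and 5.13%. Sites farther from the start were not searched.

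To see whether the stem cell and Wnt genes differed in colitis, colitis mice were first compared with normal mice. Lgr5 fell, and it was the only member past the adjusted limit (1 of 10, where 0.424% of all genes tested were past it in this direction). By the unadjusted limit 6 of 10 were lower, Lgr5, Axin2, Ascl2, Smoc2, Znrf3 and Lrig1, against 15.9% of all genes. In 5 of these, all but Znrf3, the 2 groups did not overlap, against 22.2% of all genes that were lower without overlap. The estimate was negative for 9 of 10, where it was for 73.7% of all genes, with a median log2 fold change of -1.57 over the members and -0.32 over all genes tested. Since the median of all genes was itself below 0, the values were also centred on each mouse's median and quantile normalized, which gave a median of -1.24 for the members in both cases, and 0.02 and -0.05 for all genes.

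**Figure D1:**
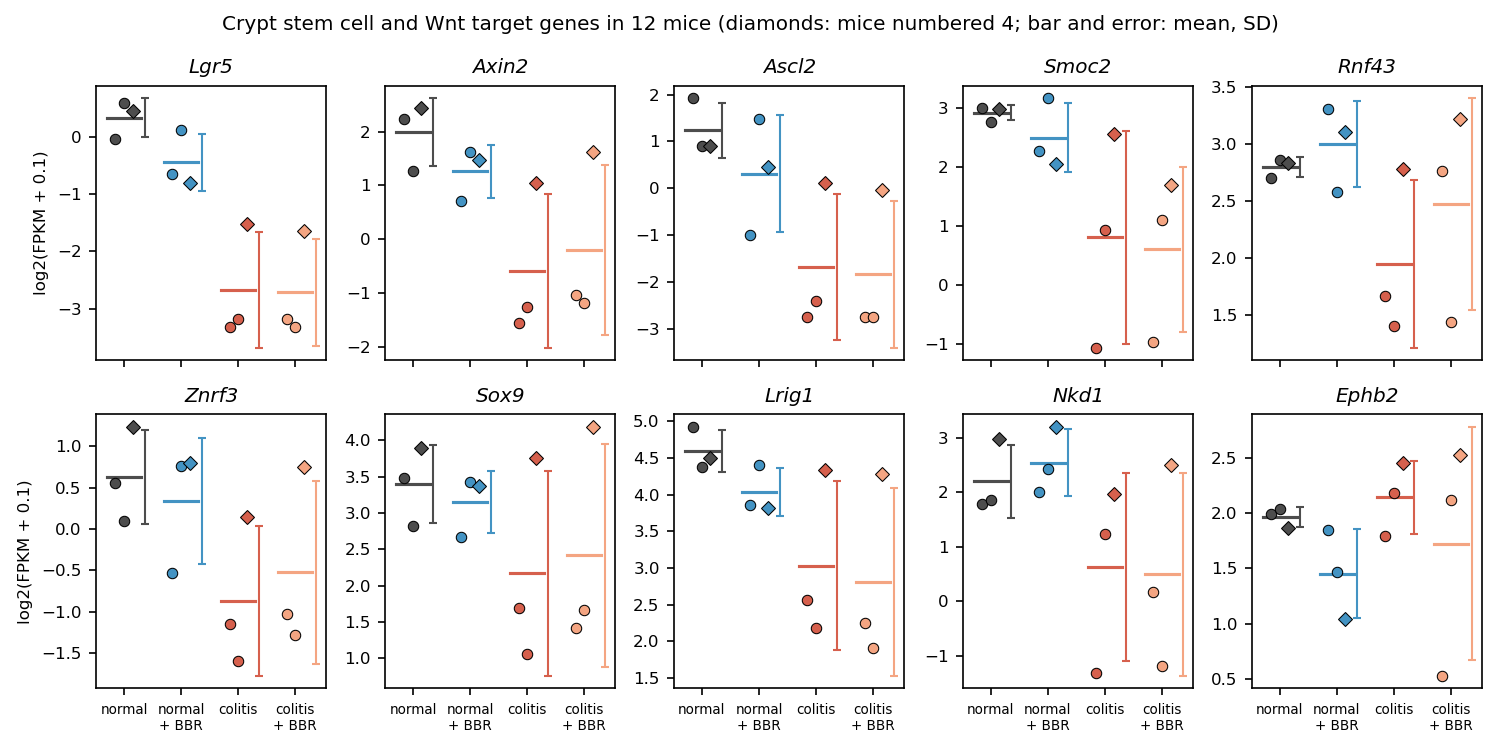
Expression of the 10 genes in each mouse, as log2(FPKM + 0.1), in 4 groups of 3 mice. Diamonds are the mice numbered 4, circles the others, the horizontal bar is the group mean and the error bar 1 SD. In Lgr5 all 6 mice given DSS lie below all 6 mice that were not, from 0 to 0.25 FPKM against 0.47 to 1.41 FPKM, and in most other genes the diamond of a colitis group lies near the normal mice.

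Lgr5 was low even in normal mice, at 0.87, 1.41 and 1.27 FPKM. In colitis mice it was listed at 0, 0.01 and 0.25 FPKM. The highest colitis mouse was thus well below the lowest normal mouse. The log2 fold change was -3.01 (SE 0.58, adjusted p = 0.0367). On a transcript of this length 3 reads are worth 0.0325 to 0.0508 FPKM depending on the mouse, so 2 of the 3 colitis values lie under the level of 3 reads, and the size of the fold change depends on the pseudocount, with -1.01 at a pseudocount of 1 and -4.97 (adjusted p = 0.0852) at 0.01. The call rested on every library but 1: it was kept without colitis mouse 4 (adjusted p = 0.0227), and was lost without normal mouse 1 (0.128), 3 (0.146) or 4 (0.113) and without colitis mouse 1 (0.13) or 2 (0.105), with log2 fold changes between -3.59 and -2.68 throughout. The exact permutation test gave p = 0.1, the smallest it can give.

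Ascl2, which acts in the same cells as Lgr5, had 3.68, 1.76 and 1.77 FPKM in normal mice against 0.05, 0.09 and 0.98 FPKM in those with colitis. Every colitis mouse was below every normal mouse, but mouse 4 was much closer to them than mice 1 and 2, whose values lie under the 3-read level of 0.0974 to 0.152 FPKM. The log2 fold change of -2.91 (SE 0.92) did not pass the adjusted limit (adjusted p = 0.119). Smoc2 was even among normal mice, at 7.9, 6.7 and 7.73 FPKM, and spread widely in colitis mice, at 0.38, 1.81 and 5.74 FPKM. Its log2 fold change was -2.10 (SE 0.82, adjusted p = 0.18). For Lrig1, the most abundant of the 10 genes, normal mice had 30.32, 20.72 and 22.49 FPKM while colitis mice had 5.83, 4.45 and 20.2 FPKM. Here colitis mouse 4 was only just below the lowest normal mouse, and the log2 fold change was -1.57 (SE 0.62, adjusted p = 0.183).

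The estimates of the Wnt targets that restrain the pathway ran from -2.57 (Axin2) to -0.85 (Rnf43) on the log2 scale. Axin2 had 4.63, 2.3 and 5.34 FPKM in normal mice against 0.24, 0.32 and 1.96 FPKM in colitis. The groups did not overlap, and the log2 fold change was -2.57 (SE 0.80, adjusted p = 0.116). Among the ubiquitin ligases, Znrf3 had 1.37, 0.97 and 2.26 FPKM in normal mice. In colitis it had 0.35, 0.23 and 1.01 FPKM, where mouse 4 reached the range of the normal mice (log2 fold change -1.50, SE 0.64, adjusted p = 0.206). Rnf43 was at 6.38, 7.15 and 7.03 FPKM in normal mice but at 3.06, 2.53 and 6.77 FPKM in colitis mice. It had the smallest difference of the 9 genes with lower estimates, -0.85 on the log2 scale (SE 0.46, adjusted p = 0.287). Nkd1 ranged from 3.33 to 7.78 FPKM in normal mice and from 0.3 to 3.81 FPKM in colitis, with overlap (log2 fold change -1.58, SE 0.94, adjusted p = 0.326).

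Sox9 and Ephb2 overlapped between the groups. Sox9 had 11.1, 6.98 and 14.74 FPKM in normal mice against 3.12, 1.99 and 13.43 FPKM in colitis mice, so 2 colitis mice were below all normal mice and mouse 4 was among them (log2 fold change -1.23, SE 0.76, adjusted p = 0.341). Ephb2 was the only member with a higher estimate in colitis mice. The 3 normal mice had 3.87, 4.01 and 3.54 FPKM, and those with colitis 3.36, 4.45 and 5.37 FPKM. Its log2 fold change was 0.18, and the 95% interval of -0.80 to 1.16 lies above the estimates of the other 9 genes. The intervals of Smoc2, Rnf43, Znrf3, Sox9, Lrig1 and Nkd1 overlap it, and those of Lgr5, Axin2 and Ascl2 do not. No difference between genes was tested.

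In the mice numbered 1 to 3 alone, the members were lower by more. The median difference was -2.07 on the log2 scale with 10 of 10 lower, against -0.61 with 9 of 10 lower between the 2 mice numbered 4, where 1 colitis mouse stands against 1 normal mouse. A limma fit without the mice numbered 4 called 5 members lower by the adjusted limit, where 3.69% of all genes were called lower. These were Lgr5 (-3.53, adjusted p = 0.0208), Axin2 (-3.16, adjusted p = 0.0312), Ascl2 (-3.97, adjusted p = 0.0447), Sox9 (-1.78, adjusted p = 0.0492) and Lrig1 (-2.28, adjusted p = 0.025), each as a log2 fold change. With all mice and a block for the mice numbered 4, 4 members passed, where 9.22% of all genes did in either direction: Lgr5 (adjusted p = 0.0121), Axin2 (0.0235), Ascl2 (0.0464) and Znrf3 (0.0428). Leaving out 1 mouse at a time, 3 to 9 members passed the unadjusted limit, 3 without normal mouse 1 or colitis mouse 1 and 9 without colitis mouse 4. The share of all genes past this limit in either direction moved with them, at 14% and 14.9% without the former 2 mice and 31.4% without the latter.

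**Figure D2:**
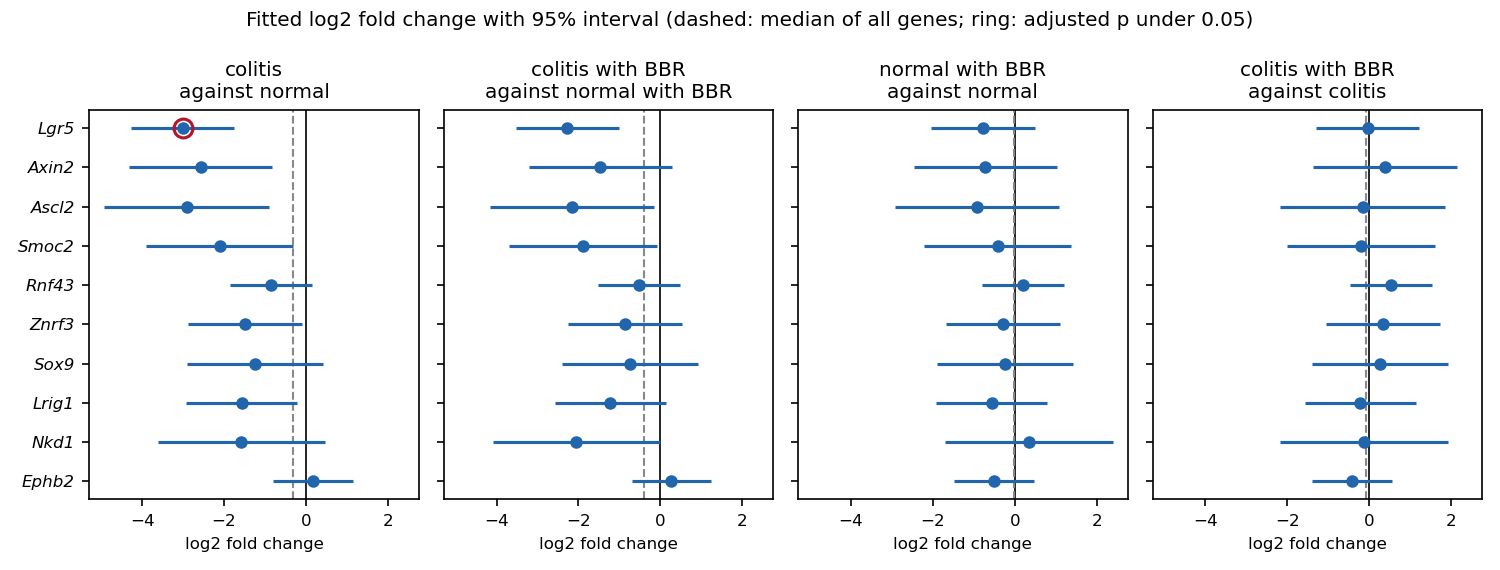
Fitted log2 fold change of each gene with its 95% interval in 4 comparisons, from limma over 12 mice. The dashed line is the median of all genes tested, and the ring marks the adjusted call, which is Lgr5 in colitis against normal mice. Intervals of both comparisons of BBR contain 0 for all 10 genes.

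The same comparison could be made among mice that received BBR. In colitis mice receiving BBR against normal mice receiving BBR, 9 of 10 members again had lower estimates, as had 80.1% of all genes, with a median of -1.34 against -0.40 for all genes (-0.88 and -0.03 after quantile normalization). None passed the adjusted limit, where 0.0131% of all genes were called lower, and 4 passed the unadjusted limit, Lgr5, Ascl2, Smoc2 and Nkd1, against 17.3% of all genes. Lgr5 and Smoc2 did not overlap between the groups (2 of 10, against 18% of all genes). Lgr5 was at 0.54, 0.99 and 0.47 FPKM in normal mice receiving BBR and was listed at 0.01, 0 and 0.22 FPKM in colitis mice receiving BBR, a log2 fold change of -2.27 (SE 0.58, adjusted p = 0.207). Smoc2 was at 4.72, 8.81 and 4.03 FPKM in the former and 0.41, 2.04 and 3.12 FPKM in the latter (log2 fold change -1.89, SE 0.82, adjusted p = 0.246).

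Mouse 4 of the colitis mice receiving BBR was the highest of its group in all 10 genes. It had 2.96 FPKM of Axin2, 18.11 of Sox9, 19.31 of Lrig1 and 5.56 of Nkd1, where mice 2 and 3 had at most 0.39, 3.06, 4.67 and 1.02 FPKM. Between the 2 mice numbered 4 the members' median difference was 0.03 on the log2 scale with 5 of 10 lower, and in the mice numbered 1 to 3 it was -2.16 with 10 of 10 lower. Without this mouse 8 members passed the unadjusted limit, where 38.6% of all genes did in either direction, and 5 the adjusted limit, where 14.7% did. The 5 were Lgr5 (-2.81, adjusted p = 0.019), Axin2 (-2.37, adjusted p = 0.0447), Ascl2 (-3.05, adjusted p = 0.0416), Lrig1 (-1.95, adjusted p = 0.0361) and Nkd1 (-3.05, adjusted p = 0.0396), as log2 fold changes. Without all mice numbered 4 there were also 5, Lgr5, Axin2, Ascl2, Sox9 and Lrig1, but 13.5% of all genes were then called lower. Leaving out any other mouse of this comparison left 1 or 2 members past the unadjusted limit, which 9.44% to 15.4% of all genes then passed.

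Next, BBR was examined within colitis. In colitis mice receiving BBR against colitis mice, 0 of 10 members passed either limit, where 0% of all genes were called by the adjusted limit and 6.39% by the unadjusted limit, and 0 of 10 were without overlap, where 7.08% of all genes were. The log2 fold changes ran from -0.42 (Ephb2) to 0.53 (Rnf43), 6 of 10 negative beside 62% of all genes, with a median of -0.09 for the members and for all genes alike. For Lgr5, at 0, 0.01 and 0.25 FPKM in colitis mice and 0.01, 0 and 0.22 FPKM with BBR, the estimate was -0.04 with a 95% interval of -1.31 to 1.22. Axin2 was at 0.24, 0.32 and 1.96 FPKM in the former and 0.39, 0.34 and 2.96 FPKM in the latter, an estimate of 0.39 with an interval of -1.37 to 2.14. In both groups the mouse numbered 4 was the highest. For both genes the interval includes 1 log2 unit in either direction, so a difference of that size was not excluded with 3 mice a group. In 4 mice of these groups Lgr5 lies under the level of 3 reads, where the added 0.1 FPKM makes 1 unit differ from a 2-fold change. Leaving out colitis mouse 4 or others turned the sign of 9 of the 10 estimates at least once, all but that of Rnf43 (0.15 to 1.04), and 1 member passed the unadjusted limit without mouse 3 of the colitis mice receiving BBR, where 10.8% of all genes did. In the mice numbered 1 to 3 alone the median difference was 0.06 with 4 of 10 lower and 0 past either limit, and between the 2 mice numbered 4 it was 0.25 with 4 of 10 lower.

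In normal mice BBR was compared with water. Again 0 of 10 members passed either limit, where 0% and 1.36% of all genes did, and 1 of 10 was without overlap, where 9.62% of all genes were. The one without overlap was Ephb2, at 3.5, 2.66 and 1.96 FPKM with BBR and 3.87, 4.01 and 3.54 FPKM without, a log2 fold change of -0.51 (SE 0.45, unadjusted P = 0.275). The estimates were negative for 8 of 10, where 54% of all genes had such an estimate, with a median of -0.47 against -0.02 for all genes. In the mice numbered 1 to 3 alone the median difference was -0.28 with 0 of 10 past either limit, and between the 2 mice numbered 4 it was -0.60, each with 8 of 10 lower. The lower estimates included Lgr5 (-0.78, interval -2.04 to 0.49), Axin2 (-0.72, interval -2.47 to 1.03) and Ascl2 (-0.92, interval -2.93 to 1.09), and those of Rnf43 (0.20) and Nkd1 (0.34) were above 0. Lgr5 passed the unadjusted limit, but not the adjusted one, at a pseudocount of 1 (log2 fold change -0.39, SE 0.16).

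The interaction, the difference between the effect of BBR in colitis and in normal mice, was past neither limit in any member (0 of 10, where 0% and 2.42% of all genes were). The estimates were above 0 for 9 of 10, all but Nkd1, and for 41.1% of all genes, with a median of 0.42 against -0.08 for all genes. In the mice numbered 1 to 3 alone 0 of 10 passed either limit. The interaction is made of the same mice as the comparisons above, so its direction is not a separate observation. The smallest standard error was that of Ephb2 (0.63), and that of Lgr5 was 0.82 for an estimate of 0.74 on the log2 scale.

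By group means, 7 of the 10 genes were highest in normal mice, then in normal mice receiving BBR, and lowest in the 2 colitis groups. Lgr5 had 1.18 ± 0.28, 0.667 ± 0.282, 0.0867 ± 0.142 and 0.0767 ± 0.124 FPKM (mean ± SD, n = 3) in normal mice, normal mice receiving BBR, colitis mice and colitis mice receiving BBR. Rnf43 and Nkd1 were highest in normal mice receiving BBR, and Ephb2 in colitis mice. The neighbours normal and normal with BBR overlapped in 9 of 10 genes, and the 2 colitis groups in all 10. Per transcript length, Lrig1 and Sox9 were the most abundant members in normal mice, at 24.5 ± 5.11 and 10.9 ± 3.88 FPKM, and Lgr5 the least abundant.

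Most members varied together across mice. Over the 12 mice, Pearson's r of log2 values had a median of 0.78 among the 45 pairs of members and of 0.83 among the 36 pairs without Ephb2, with a range of 0.48 to 0.96. Ephb2 had a median r of 0.15 with the other genes. Within groups, with each group's mean removed, the median was 0.72 over all pairs and 0.46 for Ephb2. The points share the difference between groups and that between the mice numbered 4 and the others, and the pattern was common in the table: 27.6% of the 11934 genes averaging at least 1 FPKM had an r of at least 0.8 with the mean of the members. The genes with the pattern most like that mean were Fbxo21, Pfdn2, Pomgnt2, Trub1 and Usp48, with r between 0.984 and 0.988. For Lgr5 they were Agk (0.975), Zfp422 (0.969), Kit (0.96), Hdac10 (0.959) and Nxpe2 (0.958), out of 11943 genes, 18.3% of which had an r of at least 0.8.

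To place these genes in the pathway, other lists were read in colitis against normal mice, for which single mice were not left out and in which 73.7% of all genes had an estimate below 0. Of the other stem cell genes, 11 of 12 were tested (Olfm4 was below the filter), 9 were lower and 2 higher in estimate, and the median log2 fold change was -0.75, or -0.37 after quantile normalization and -0.42 after centring. None passed the adjusted limit. By the unadjusted limit 4 of 11 were lower, where 15.9% of all genes were, and 1 was higher. The 3 with the smallest p were Tnfrsf19 (-2.30, SE 0.63, adjusted p = 0.0921), a TNF receptor family member of the crypt base, the cell cycle kinase Cdk6 (-1.52, SE 0.47, adjusted p = 0.116) and Cdca7 (-1.52, SE 0.55, adjusted p = 0.155). The one that was higher, named after its value was seen, was Prom1 (1.61, SE 0.62, adjusted p = 0.177).

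Other Wnt targets were mixed in direction. Of 16 genes 14 were tested (not Sp5 and Notum), 9 of them lower, with a median of -0.24, which turned to 0.15 after quantile normalization. The one gene past the adjusted limit rose (1 of 14, where 0.653% of all genes were past it in this direction). Mmp7, which encodes the protease matrilysin, was at 0.81 to 1.89 FPKM in colitis and at most 0.16 FPKM in normal mice, with a log2 fold change of 2.92 (SE 0.46, adjusted p = 0.0173). In colitis mice receiving BBR it was at 0 to 0.1 FPKM, a log2 fold change of -3.19 against colitis mice (SE 0.46, adjusted p = 0.0875). The values in normal mice and with BBR lie near or under the level of 3 reads on 2000 bases, 0.0758 to 0.119 FPKM. The size of both fold changes therefore depends on the pseudocount. By the unadjusted limit Nkd2, a relative of Nkd1 (-2.20, SE 0.70), and Ephb3, a relative of Ephb2 (-1.09, SE 0.47), were lower, both named after their values were seen. These 2 of 14 are no larger a share than the 15.9% of all genes lower by this limit. Nkd1 and Nkd2 thus had estimates of the same sign, and Ephb2 and Ephb3 did not; the latter difference was not tested.

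**Figure D3:**
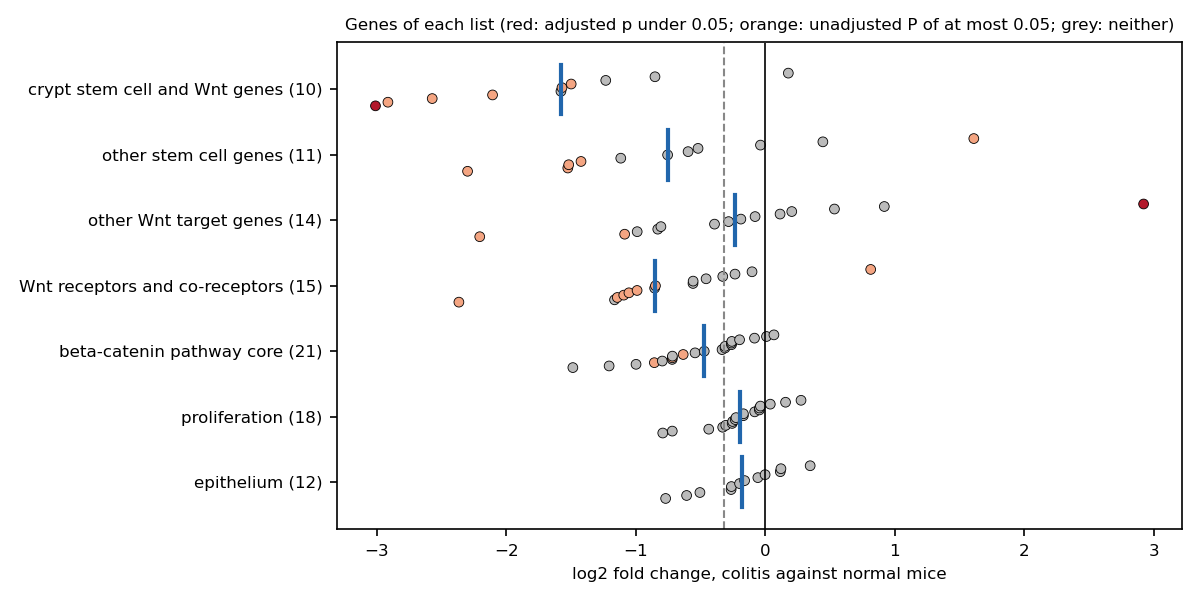
Log2 fold change of each tested gene in colitis against normal mice, by list, with the number of genes tested in parentheses. The blue bar is the median of the list and the dashed line that of all genes, -0.32. Lgr5 on the left and Mmp7 on the right are the red points, and the median of the members, -1.57, is the lowest of the 7 lists drawn. The smooth muscle genes, which are not drawn, had a lower median, -2.77.

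On the receiving side, 15 of 17 receptors and co-receptors were tested (not Fzd10 and Lgr6). Of these 14 were lower in estimate, with a median of -0.85 (-0.43 after quantile normalization), 6 of them by the unadjusted limit (15.9% of all genes) and none by the adjusted limit. The smallest p-values were those of the co-receptor Lrp6 (-1.05, SE 0.33, adjusted p = 0.118) and of Fzd8 (-0.85, SE 0.29, adjusted p = 0.144) and Fzd4 (-1.09, SE 0.38, adjusted p = 0.149). Fzd1, named after its value was seen, was the one with a higher estimate (0.81, SE 0.36, adjusted p = 0.217). The 21 genes of the beta-catenin pathway core had a median of -0.47, or -0.26 after quantile normalization and -0.13 after centring, and 3 of 21 were lower by the unadjusted limit, a share no higher than the 15.9% of all genes. These were the ubiquitin ligase subunit Btrc (-0.72, SE 0.23), the kinase Csnk1e (-0.86, SE 0.35) and Dvl1, a Dishevelled (-0.63, SE 0.27). Of the R-spondins, the ligands of Lgr5, Rspo1 and Rspo3 were tested and Rspo2 and Rspo4 were below the filter. Rspo1 was at 0.28 ± 0.28 FPKM without and 0.42 ± 0.13 FPKM with colitis (SD, n = 3), with an estimate of 0.72 (SE 0.65, adjusted p = 0.502). Rspo3 was at 2.38 ± 0.99 FPKM without and 2.78 ± 1.74 FPKM with colitis (SD, n = 3), with an estimate of 0.01 (SE 0.67).

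Because each library is whole tissue, the members were set beside lists for the tissue's cell types. The members' mean, as a log2 difference from the normal mice, was -2.55, -2.15 and -0.44 in colitis mice 1, 2 and 4 and -2.39, -2.36 and -0.30 in mice 2, 3 and 4 of the colitis mice receiving BBR. For the 12 epithelial genes the corresponding means stayed between -0.57 and 0.11 in all 12 mice. In colitis against normal mice 9 of 12 were lower in estimate, with a median of -0.18 (-0.25 after quantile normalization and 0.16 after centring), and 0 of 12 passed either limit. The smallest p-values were those of the transcription factors Elf3 (0.35, SE 0.23, adjusted p = 0.376) and Cdx1 (-0.77, SE 0.55, adjusted p = 0.405) and of the keratin Krt18 (-0.50, SE 0.43, adjusted p = 0.48). In the 4 mice in which the members were lowest, the epithelial means were 0.04 and -0.52 (colitis mice 1 and 2) and -0.57 and -0.43 (mice 2 and 3 with BBR), and in the mice numbered 4 of these groups -0.07 and -0.01. Of the smooth muscle genes 12 of 12 were lower in estimate in the same comparison, 11 by the unadjusted limit (15.9% of all genes), with a median of -2.77. Their summed level was 133, 940.3 and 925.6 FPKM in colitis mice 1, 2 and 4 against 2209 to 4101 FPKM in normal mice. As a mean log2 difference from normal mice they were at -4.50, -1.91 and -1.49 in these colitis mice. In colitis mice receiving BBR the sum was 650 to 684.9 FPKM in mice 2 and 3 and 4384 FPKM in mouse 4.

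Granulocyte genes moved the other way. All 9 tested of 10 were higher in colitis than in normal mice by the unadjusted limit, where 5.56% of all genes were, and S100a8, listed at 0 in every mouse without DSS, also by the adjusted limit (adjusted p = 0.0254), where 0.653% of all genes were. Their mean was 3.24 to 5.81 above that of normal mice on the log2 scale. In mouse 4 of the colitis mice receiving BBR it was 0.66 above, against at most 4.17 in the other mice of its group. The 12 fibroblast and stroma genes had a median of -0.67 in colitis against normal mice, or -0.45 after quantile normalization and -0.33 after centring. By the unadjusted limit 4 of 12 were lower, where 15.9% of all genes were. Cd34 was also lower by the adjusted limit (-1.79, SE 0.37, adjusted p = 0.0449), 1 of 12, where 0.424% of all genes were. In colitis mice receiving BBR against normal mice receiving BBR, 12 of 12 were lower in estimate (80.1% of all genes), 9 by the unadjusted limit (17.3% of all genes), with a median of -1.38, where the members' median was -1.34 and that of the smooth muscle genes -1.88. What part muscle, stroma and leukocyte RNA had in the members' values was not tested.

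**Figure D4:**
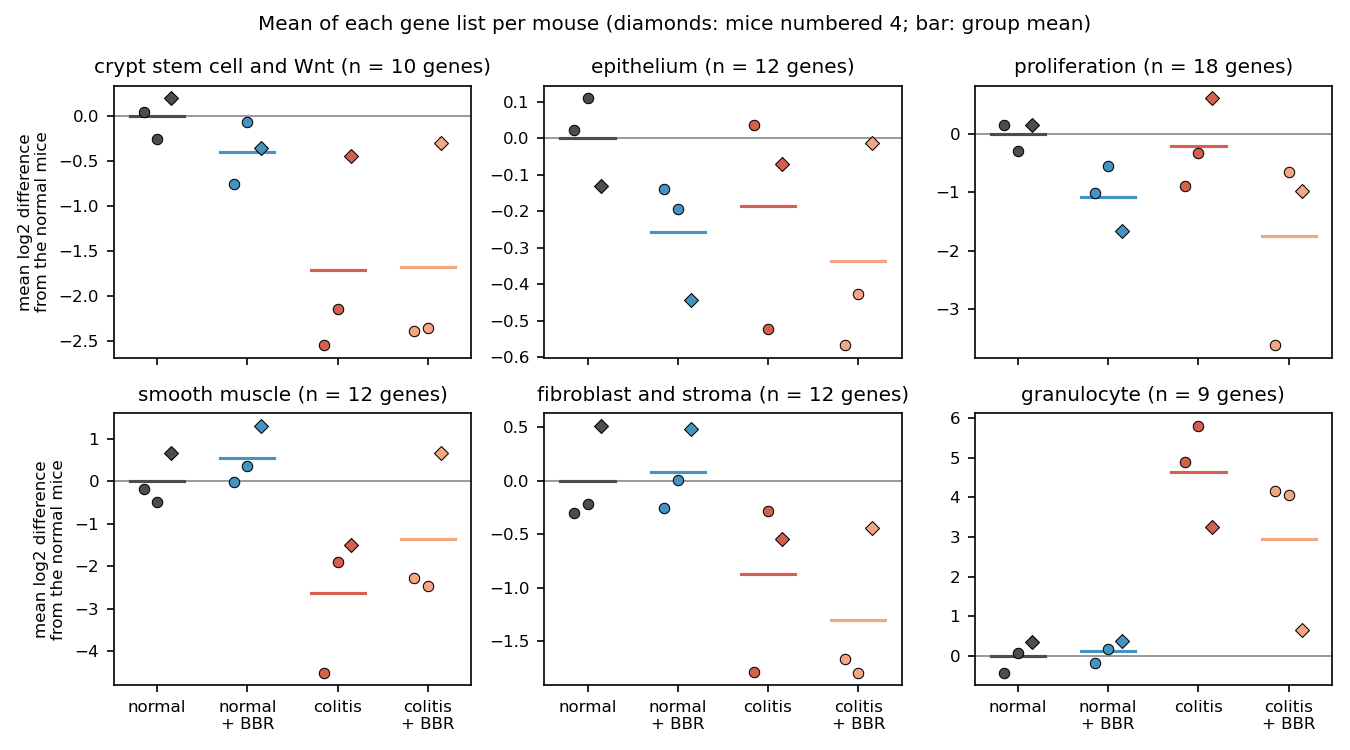
Mean log2 difference from the normal mice for 6 gene lists, per mouse and group, with the group mean as a bar and the mice numbered 4 as diamonds. The vertical scales differ between panels. Epithelial genes stay within -0.57 to 0.11, whereas the stem cell and Wnt genes (-2.55 to -2.15) and the smooth muscle genes are lowest in the mice given DSS that are numbered 1 to 3.

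Proliferation genes were set beside the members as well. In colitis against normal mice their median log2 fold change was -0.20, which turned to 0.13 after quantile normalization and 0.14 after centring, with 0 of 18 past either limit. With BBR, 18 of 18 were lower in estimate in colitis mice (median -1.55 against colitis mice, where 62% of all genes were lower, 8 by the unadjusted limit, which 6.39% of all genes passed in either direction, and 0 by the adjusted limit) and 18 of 18 in normal mice (median -1.20 against normal mice, where 54% of all genes were lower, 1 by the unadjusted limit, which 1.36% of all genes passed), where the members' medians were -0.09 and -0.47. As a mean log2 difference from normal mice, these genes were at -0.89, -0.32 and 0.61 in colitis mice 1, 2 and 4 and at -3.63, -0.66 and -0.98 in mice 2, 3 and 4 of the colitis mice receiving BBR, so the groups overlapped. In normal mice receiving BBR they were at -1.02, -0.55 and -1.67, without overlap with the -0.30 to 0.15 of normal mice. Without mouse 2 of the colitis mice receiving BBR, a fit chosen after seeing the data, the median in colitis mice with against without BBR was -0.51, with 17 of 18 lower and 3 by the unadjusted limit, where 2.46% of all genes were lower.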

How the data were processed

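Rectal RNA of 12 mice was sequenced by the authors, and mice were grouped by the sample labels. The authors filtered reads with SOAPnuke, aligned them with Bowtie2 2.2.5 and estimated expression with RSEM 1.2.12, tools and versions as the submitters' processing notes and the methods give them. The deposited table gives every gene 1 FPKM value in each mouse; this unit was read from the values, and TPM is possible. The methods and the labels name different library kits.

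Genes averaging at least 0.1 over the mice (15315) were taken to log2(FPKM + 0.1). A limma 3.58.1 model (R 4.3.3) with group means and a trend of the spread on expression was fitted over all 12 mice. The adjusted limit was 0.05 (Benjamini-Hochberg). Python 3.11.15 (SciPy 1.17.1, pandas 2.3.3, NumPy 2.4.6) gave the other values, and matplotlib 3.10.9 the figures. The fit was tested on simulated data. The steps of low values gave the depth, with 3 reads on 2000 bases worth 0.0758 to 0.119 FPKM, which covers counting error only.

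The 10 genes and the lists were chosen with earlier results of these data known. Named genes were all 10 members, from each list the genes past the adjusted limit in the comparison described and otherwise up to 3 with the smallest p in colitis against normal mice, and the 5 most similar genes for Lgr5 and for the members' mean. Lists for colonocytes, goblet cells, squamous epithelium, neurons, glia and macrophages were also computed. The replicate numbers 1, 3 and 4 occur in both normal groups, where the deviations of same-numbered mice correlated with r of 0.29, 0.11 and 0.66, each above the 0.1 at which numbers were taken to pair mice, although mice 1 and 3 with different numbers reached 0.37 and 0.46. A replicate block changed no call of a member there. The alternatives were another pseudocount or filter, quantile normalization, centring, no trend, blocks, the 2 groups alone, the mice numbered 1 to 3 alone and leaving out each mouse.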

Additional observations from a re-analysis of the deposited data

How the results depend on the processing

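Depth limits Lgr5 and Ascl2 most, since their values in 4 mice lie under the level of 3 reads, and groups of 3 mice leave wide intervals. A fit without 1 mouse leaves 2 in its group, and the cause of the changes below was not tested. Lgr5 was not tested with the filter at a mean of 1. Same-numbered mice of different groups deviated together (mean r 0.34 over 13 pairs, against -0.10 over 41 other pairs), mostly those numbered 4 (0.50 over 6 pairs). Among the mice numbered 1 to 3 the mean r was 0.21 for same and 0.19 for different numbers. With the replicate block, Lgr5 had an adjusted p of 0.0321 in colitis against normal mice, and the block changed no other call of a member by the adjusted limit. In the same comparison and fit, the other lists gained adjusted calls, such as Tnfrsf19 (adjusted p = 0.0176), Nkd2 (0.0201), Fzd2 (0.0492), Slc51b (0.0278), Cd14 (0.0347) and Ly6a (0.0152), with 6 of 12 smooth muscle and 6 of 9 granulocyte genes past the limit. That fit called 4.79% of all genes in either direction, against 1.08% without a block. Member estimates in colitis against normal mice kept their sign in every fit except that of Ephb2. For colitis against normal, adjusted gene calls (165) became 91 with a pseudocount of 0.01, 71 with a filter at a mean of 1, 258 with quantile normalization, 488 with the compared groups alone, 734 with the replicate block, 1412 with mice numbered 4 as a block and 804 with the mice numbered 1 to 3 alone, and ranged from 11 to 211 without 1 mouse. For colitis against normal, unadjusted gene calls (3280) became 5119 with the mice numbered 1 to 3 alone, and ranged from 2150 to 4807 without 1 mouse. For colitis against normal, adjusted member calls (1) became 0 with a pseudocount of 0.01, 0 with a filter at a mean of 1, 4 with mice numbered 4 as a block and 5 with the mice numbered 1 to 3 alone, and ranged from 0 to 1 without 1 mouse. For colitis against normal, unadjusted member calls (6) ranged from 3 to 9 without 1 mouse. For BBR in colitis, adjusted gene calls (0) became 4 with a pseudocount of 1, 2 with a pseudocount of 0.01, 1 with no filter, 3 with no trend, 1 with the replicate block and 2 with mice numbered 4 as a block, and ranged from 0 to 58 without 1 mouse. For BBR in colitis, unadjusted gene calls (978) became 538 with the compared groups alone, 1685 with the replicate block and 1515 with mice numbered 4 as a block, and ranged from 496 to 1662 without 1 mouse. For BBR in colitis, unadjusted member calls (0) ranged from 0 to 1 without 1 mouse. For BBR in normal mice, adjusted gene calls (0) became 1 with the compared groups alone. For BBR in normal mice, unadjusted gene calls (208) became 361 with quantile normalization, 752 with the compared groups alone, 392 with the replicate block and 372 with mice numbered 4 as a block, and ranged from 94 to 261 without 1 mouse. For BBR in normal mice, unadjusted member calls (0) became 1 with a pseudocount of 1 and 1 with the compared groups alone. For colitis under BBR, adjusted gene calls (6) became 2 with no filter, 3 with centring, 0 with the compared groups alone, 12 with no trend, 268 with mice numbered 4 as a block and 2302 with the mice numbered 1 to 3 alone, and ranged from 0 to 2255 without 1 mouse. For colitis under BBR, unadjusted gene calls (3010) became 1894 with quantile normalization, 1706 with centring, 4685 with mice numbered 4 as a block and 5960 with the mice numbered 1 to 3 alone, and ranged from 1446 to 5915 without 1 mouse. For colitis under BBR, adjusted member calls (0) became 1 with mice numbered 4 as a block and 5 with the mice numbered 1 to 3 alone, and ranged from 0 to 5 without 1 mouse. For colitis under BBR, unadjusted member calls (4) became 2 with a filter at a mean of 1, 2 with quantile normalization, 1 with centring and 8 with the mice numbered 1 to 3 alone, and ranged from 1 to 8 without 1 mouse. For the interaction, unadjusted gene calls (371) became 779 with the replicate block and 671 with mice numbered 4 as a block, and ranged from 224 to 889 without 1 mouse. Estimates of members that turned sign were Ephb2 for colitis against normal (-0.026, the mice numbered 1 to 3 alone), Lgr5 for BBR in colitis (0.073, quantile normalization), Lgr5 for BBR in colitis (0.11, centring), Nkd1 for BBR in colitis (0.019, centring), Smoc2 for BBR in colitis (0.13, the mice numbered 1 to 3 alone), Ephb2 for colitis under BBR (-0.33, the mice numbered 1 to 3 alone), Smoc2 for the interaction (-0.16, the replicate block) and Ephb2 for the interaction (-0.31, the mice numbered 1 to 3 alone). Leaving out 1 mouse also turned signs for BBR in colitis, with log2 fold changes of -0.52 to 1.2 (Axin2), -0.29 to 0.85 (Znrf3), -0.63 to 1.05 (Sox9), -1.14 to 0.71 (Nkd1), -0.58 to 0.54 (Lgr5), -1.06 to 0.73 (Ascl2), -1.14 to 0.67 (Smoc2), -0.95 to 0.43 (Lrig1) and -0.82 to 0.18 (Ephb2). Leaving out 1 mouse also turned signs for BBR in normal mice, with log2 fold changes of -0.55 to 0.15 (Znrf3). Leaving out 1 mouse also turned signs for colitis under BBR, with log2 fold changes of -0.13 to 0.87 (Ephb2). Leaving out 1 mouse also turned signs for the interaction, with log2 fold changes of -0.71 to 1.09 (Smoc2), -0.31 to 0.69 (Ephb2), -0.38 to 1.29 (Sox9), -0.39 to 1.00 (Lrig1), -1.48 to 0.36 (Nkd1), -0.14 to 1.65 (Ascl2), -0.049 to 0.84 (Rnf43) and -0.0031 to 1.14 (Znrf3).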

Other observations

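Genes linked to regenerating epithelium were also read. Of 12 listed genes 8 were tested in colitis against normal mice. Their median log2 fold change was 0.97, with 4 of 8 higher by the unadjusted limit (5.56% of all genes), 1 of 8 lower (15.9% of all genes) and none past the adjusted limit. In estimate 5 were higher, where 26.2% of all genes were, and 3 lower. The 1 lower by the unadjusted limit, named after its value was seen, was Ccn2 (-1.855, SE 0.69, adjusted p = 0.16). Ly6a, which encodes the surface protein Sca-1, was at 480.3 ± 172.9 FPKM without and 3849 ± 1907 FPKM with colitis (SD, n = 3), a log2 fold change of 2.90 (SE 0.74, adjusted p = 0.075). The growth factor Ereg had a log2 fold change of 2.23 (SE 0.56, adjusted p = 0.0713) and the alarmin Il33 of 2.35 (SE 0.73, adjusted p = 0.116). In colitis mice receiving BBR against colitis mice, Ereg was lower by the unadjusted limit (-1.64, SE 0.56, adjusted p = 0.594). It was the only one, 1 of 8, where 6.39% of all genes passed this limit in either direction.

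Other epithelial classes showed no common direction in colitis against normal mice. The 10 colonocyte genes had a median log2 fold change of 0.23, or 0.09 after quantile normalization and 0.57 after centring. By the unadjusted limit 1 of 10 was higher, beside 5.56% of all genes, the transporter subunit Slc51b (2.06, SE 0.58, adjusted p = 0.0987). The 8 goblet cell genes had a median of -0.18, or -0.33 after quantile normalization, which turned to 0.16 after centring. By the unadjusted limit 1 of 8 was lower, no larger a share than the 15.9% of all genes. It was the secretory lineage factor Atoh1 (-0.95, SE 0.29, adjusted p = 0.11). The 5 squamous genes tested of 10 had a median of 1.43 at low levels, a sum of 2.34 to 8.21 FPKM in colitis mice and 1.28 to 2.71 FPKM in normal mice. In estimate 4 of 5 were higher, where 26.2% of all genes were, and 2 of 5 by the unadjusted limit, where 5.56% were. Of 10 neuron and glia genes 8 were lower in estimate (median -0.79, or -0.40 after quantile normalization), where 73.7% of all genes were. By the unadjusted limit 2 were lower and 1 higher, where 15.9% and 5.56% of all genes were. Of 10 macrophage and leukocyte genes 8 were higher in estimate (median 0.48, or 0.92 after quantile normalization), where 26.2% of all genes were, and 4 were higher by the unadjusted limit, where 5.56% of all genes were. In the fit without a block, none of these lists had a gene past the adjusted limit.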
